A study of Mus musculus with 6 samples.

Results

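Slitrk1 to Slitrk6 and Lrrtm1 to Lrrtm4 encode 2 families of leucine-rich repeat proteins that sit in the neuronal membrane and organise synapses. The genes were taken by name from the count tables of mouse dorsal root ganglion (DRG) and neurofibroma tissue, which held 10 of them, 6 Slitrk and 4 Lrrtm, among 24062 genes. They were chosen by family name with the difference in counts between genotypes in these same 6 libraries already known, Slitrk4 included, so each genotype difference of a member is a description with no test.

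The libraries came from 3 Nf1fl/fl;DhhCre mice, labelled as DRG, and 3 mice labelled Rx1flfl;Rx3fl/fl;DhhCre, labelled as neurofibroma tumor and called here the labelled double knockout. The extraction notes give the second genotype as floxed for Nf1 as well, so all 6 mice carry Nf1fl/fl and DhhCre and the groups differ in the floxed Runx1 and Runx3 alleles. Cre under the Dhh promoter recombines floxed alleles in Schwann lineage cells, and the other cells of the tissue, sensory neurons included, keep their intact alleles. The strain background was C57BL/6-I129 in all, the titles carry a separate mouse number each, and age is not given in the sources used here. The tissue label changes with the genotype, whereas the extraction notes name DRG/tumors for both genotypes together, so it is not certain that the dissected tissue differed, and a difference in tissue cannot be told apart from genotype. Neuron markers were higher in the libraries labelled as tumor, and macrophage and fibroblast markers were higher in those labelled as DRG, with values below.

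Libraries held 12439296 to 16682194 counts, and the libraries of a genotype differed by 21.7 to 133 times the chi-square that counting noise gives. Levels are given as CPM, counts per 1000000 counts of the TMM-scaled library. Runx1 was at 131, 141 and 172 CPM in Nf1fl/fl;DhhCre and at 84.0, 78.9 and 185 in the labelled double knockout, so replicate 3 did not show a lower level, and Runx3 was at 19.9, 15.1 and 29.9 against 13.5, 10.3 and 12.1. Nf1 was at 334, 273 and 298 against 266, 263 and 342. These are whole-gene counts of whole tissue, and which exons they cover was not examined. Levels of Xist and Ddx3y gave female, male and female mice in Nf1fl/fl;DhhCre and female, male and male in the labelled double knockout. The mouse numbers in titles and count tables are exchanged for replicates 1 and 2 of Nf1fl/fl;DhhCre and for replicates 2 and 3 of the labelled double knockout, always within a genotype. A library of the latter pair was sequenced in another run, and the main counts without each of them are given below.

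Slitrk proteins carry leucine-rich repeats like those of the Slit guidance proteins and an intracellular part with similarity to Trk neurotrophin receptors. On the postsynaptic side they bind the presynaptic receptor tyrosine phosphatases Ptprd, Ptprs and Ptprf. Lrrtm proteins bind neurexins across the cleft, Lrrtm4 also binds glypicans, and Lrrtm2 is known for holding AMPA receptors at excitatory synapses. A DRG contains the cell bodies of sensory neurons with satellite glia and Schwann cells around them.

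In GENCODE M21 (GRCm38), the coding sequence of each of the 6 Slitrk genes lay in 1 uninterrupted block. Slitrk1, Slitrk6 and Slitrk5 lay within 2.77 Mb of chromosome 14, Slitrk4 and Slitrk2 within 2.40 Mb of chromosome X, and Slitrk3 on chromosome 3 (chr3:73047265-73057803, minus strand). Slitrk4 was at chrX:64264885-64276996 and Slitrk6 at chr14:110748580-110755149, both on the minus strand. Lrrtm1, Lrrtm2 and Lrrtm3 lie on the opposite strand inside the alpha catenin genes Ctnna2, Ctnna1 and Ctnna3, and 95 exon bases of Lrrtm2 were shared with Ctnna1. Lrrtm4 shared 1543 exon bases, 25.1% of its exon length, with the antisense gene Gm4409, and without strand the reads of that pair cannot be told apart. No stretch of 50 bases was shared between any members.

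Because the genotypes differ in RUNX factors, the 250 bases before the start sites were searched for the core sequences TGTGGT and TGCGGT on either strand. RefSeq starts (GRCm38.p6) were found for 8 of the 10 genes, with 10 windows, and 1 window held a match. Over all 32851 windows of the same length 18.59% held one. Slitrk3 and Lrrtm3, higher in the labelled double knockout, and Slitrk6, lower there, are shown with the match in capitals.
Slitrk3 (chr3:73057067-73057316, minus strand): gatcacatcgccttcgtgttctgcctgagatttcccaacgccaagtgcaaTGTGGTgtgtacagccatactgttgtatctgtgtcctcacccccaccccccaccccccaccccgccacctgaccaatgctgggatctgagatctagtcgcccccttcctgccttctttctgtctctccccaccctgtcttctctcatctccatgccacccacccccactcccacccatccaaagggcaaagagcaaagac
Lrrtm3 (chr10:64090256-64090505, minus strand): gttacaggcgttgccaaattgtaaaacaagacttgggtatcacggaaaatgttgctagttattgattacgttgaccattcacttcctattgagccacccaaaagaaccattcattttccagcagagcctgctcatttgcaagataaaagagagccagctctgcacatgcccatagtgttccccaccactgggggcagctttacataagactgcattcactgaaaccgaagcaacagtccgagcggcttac
Slitrk6 (chr14:110755150-110755399, minus strand): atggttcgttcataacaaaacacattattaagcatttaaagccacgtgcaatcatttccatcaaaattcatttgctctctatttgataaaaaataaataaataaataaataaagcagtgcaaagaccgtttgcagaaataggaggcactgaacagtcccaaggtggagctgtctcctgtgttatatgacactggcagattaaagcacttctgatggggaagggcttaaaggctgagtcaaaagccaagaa

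The match, 200 bases before the Slitrk3 start, was the one found in the windows used, and the other 9 windows held neither core sequence. GC content ran from 37.2% in the Slitrk6 window to 74.8% in that of Slitrk5. The Slitrk3 start in RefSeq lies inside the longer GENCODE gene. These are descriptions of sequence, with no binding measured here.

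All 10 genes passed the count filter. With limma-voom, an adjusted p below 0.05 (Benjamini-Hochberg over all 15652 genes tested) and a change above 2-fold, 4 members were past both thresholds with higher levels in the labelled double knockout (Slitrk3, Slitrk4, Slitrk5 and Lrrtm3), 1 with lower levels (Slitrk6), and 5 were not past. Over all genes tested 13.4% were past both thresholds, 8.03% higher and 5.36% lower. The CPM of the genotypes did not overlap for 6 members, against 42.3% of all genes. Since the same contrast served to choose the genes, nothing is read from these counts. The median log2 fold change of the members was 0.92, with 7 above 0, and that of all genes was 0.02, with 51.1% above 0.

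**Figure D1:**
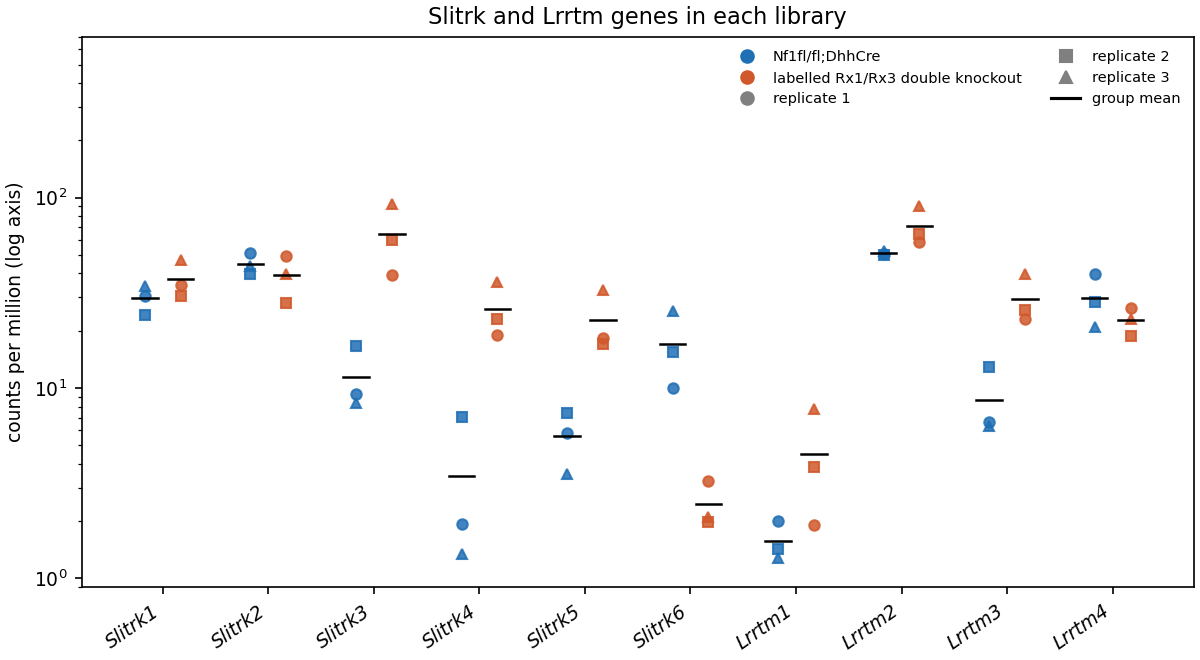
Level of each gene in each library in CPM on a log axis, with circles, squares and triangles for replicates 1, 2 and 3 and bars for group means. Slitrk3, Slitrk4, Slitrk5 and Lrrtm3 lie higher in all 3 labelled double knockout libraries, and Slitrk6 lies lower in all 3.

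Slitrk3, which pairs with Ptprd at inhibitory synapses, was at 9.29, 16.7 and 8.34 CPM in Nf1fl/fl;DhhCre and at 39.4, 60.2 and 93.1 in the labelled double knockout. The groups were well apart, although the libraries of each spread about their mean. The ratio of the means was 5.62 and the log2 fold change 2.47 (SE 0.41, n = 3 and 3).

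Slitrk4, an X-linked member of the family, was at 1.94, 7.03 and 1.35 CPM against 19.0, 23.2 and 35.8. Replicate 2 of Nf1fl/fl;DhhCre stood above the other 2 of its genotype and still below every labelled double knockout library. It had the largest difference of the 10 genes, with a ratio of means of 7.56 and a log2 fold change of 3.21 (SE 0.58). With the sex of the mouse as a covariate its log2 fold change was 2.63, and the part of sex in the difference was not tested.

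Slitrk5, whose loss in mice gives compulsive grooming, was at 5.83, 7.39 and 3.53 CPM against 18.4, 16.9 and 32.7. The ranges did not overlap, the ratio of the means was 4.07 and the log2 fold change 2.03 (SE 0.40). Replicate 3 of the labelled double knockout was the highest library for Slitrk3, Slitrk4 and Slitrk5 alike.

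Slitrk6, which is known from the innervation of the inner ear, differed in the other direction. It was at 9.99, 15.4 and 25.5 CPM in Nf1fl/fl;DhhCre and at 3.27, 1.97 and 2.11 in the labelled double knockout. The counts behind the low values were 41, 24 and 32 reads, against 144, 259 and 397. The mean was 6.92-fold lower in the labelled double knockout, with a log2 fold change of -2.72 (SE 0.56).

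Slitrk1, a gene studied in Tourette syndrome, was at 30.4, 24.3 and 34.2 CPM against 34.7, 30.5 and 47.2. The groups overlapped, with a log2 fold change of 0.34 (SE 0.22). Slitrk2, the other X-linked member, was at 51.4, 39.9 and 43.9 CPM against 49.3, 28.0 and 39.7, also overlapping, with a log2 fold change of -0.23 (SE 0.22). These were among the more abundant members and lay on the same chromosomes as members with much larger differences.

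Lrrtm3, which lies inside Ctnna3, was at 6.66, 12.9 and 6.29 CPM in Nf1fl/fl;DhhCre and at 23.0, 25.7 and 39.8 in the labelled double knockout. The ranges were apart, the ratio of the means was 3.42 and the log2 fold change 1.80 (SE 0.35). Of the 4 Lrrtm genes it was the one past both thresholds.

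Lrrtm2 was at 50.5, 49.7 and 52.6 CPM against 58.3, 64.6 and 90.8. The ranges did not overlap, and the difference stayed under 2-fold, with a log2 fold change of 0.47 (SE 0.19). Lrrtm4 was at 39.7, 28.4 and 20.97 CPM against 26.3, 18.7 and 23.0, overlapping, with a log2 fold change of -0.34 (SE 0.26). Lrrtm1 was the scarcest Lrrtm gene, at 2.01, 1.43 and 1.28 CPM against 1.91, 3.86 and 7.72, from 20 to 117 reads a library. Its groups overlapped, since replicate 1 of the labelled double knockout was within the range of the other genotype, and its log2 fold change was 1.37 (SE 0.62).

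**Figure D2:**
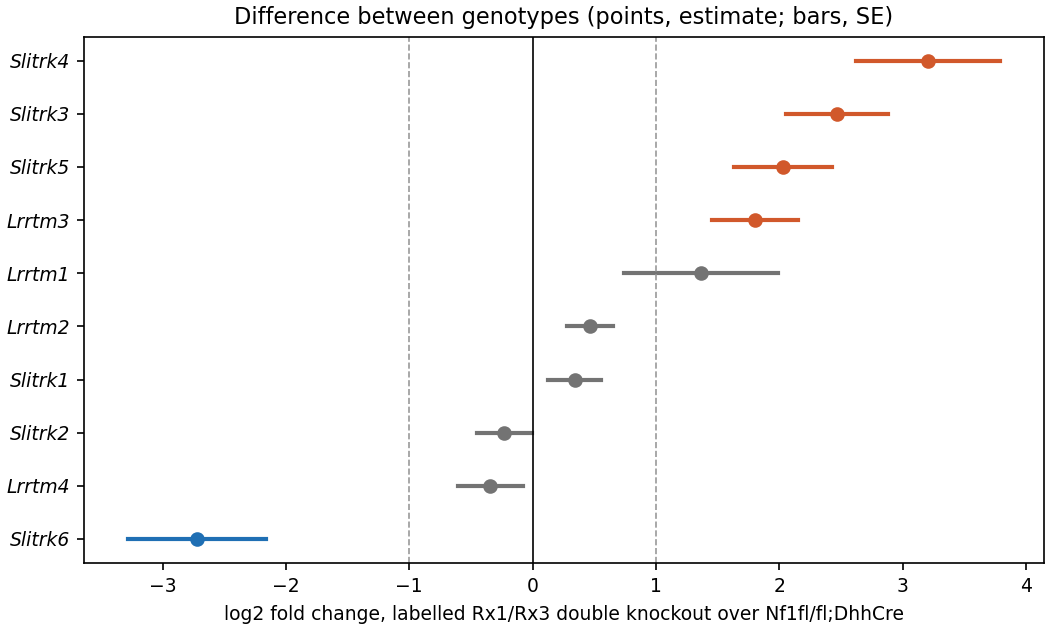
Log2 fold change of each gene between genotypes, with points for the limma-voom estimate, bars for its standard error and dashed lines at a 2-fold difference. Values run from -2.72 for Slitrk6 to 3.21 for Slitrk4, and grey marks the 5 genes not past both thresholds.

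Without replicate 1 of Nf1fl/fl;DhhCre only Slitrk6 of the 10 genes was past both thresholds, and without replicate 3 of that genotype Lrrtm3 was not. Slitrk6 was not past them without any of the labelled double knockout libraries in turn, and Lrrtm1 was past them without replicate 1 of the latter. The direction of each of the 10 differences held in all 6 of these fits.

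The alpha catenin genes that surround 3 of the Lrrtm genes were measured as well. Ctnna2, which holds Lrrtm1, and Ctnna3, which holds Lrrtm3, rose in the labelled double knockout with log2 fold changes of 1.99 (SE 0.48, adjusted p = 0.0301) and 1.81 (SE 0.32, adjusted p = 0.0145). Neither passed without replicate 1 of Nf1fl/fl;DhhCre, and Ctnna2 also did not without replicate 3 of it or replicate 2 of the labelled double knockout. Ctnna1, the widely expressed alpha catenin around Lrrtm2, differed by -0.13 on that scale (SE 0.11, adjusted p = 0.449).

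To compare levels between genes, CPM was divided by the length of the merged exons in kb. In Nf1fl/fl;DhhCre, Lrrtm2 was the highest at 8.46 ± 0.25 CPM per kb (SD, n = 3), and its range did not reach that of the next gene. Slitrk2 at 5.58, Slitrk1 at 5.53, Lrrtm4 at 4.83, Slitrk6 at 4.0, Slitrk3 at 2.36 and Lrrtm3 at 2.03 followed, each overlapping its neighbour in the order. Slitrk5 at 1.06 was below these, and Lrrtm1 at 0.519 and Slitrk4 at 0.393 overlapped at the bottom, with the range of Slitrk4 reaching that of Slitrk5.

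In the labelled double knockout the order per kb was led by Slitrk3 at 13.3 ± 5.59 and Lrrtm2 at 11.8 ± 2.87, whose ranges overlapped. The range of Lrrtm2 lay above those of all the other genes but Slitrk3, while that of Slitrk3, from 8.14 to 19.2, reached those of Slitrk1 and Lrrtm3. Slitrk1 at 6.99, Lrrtm3 at 6.93, Slitrk2 at 4.83, Slitrk5 at 4.31, Lrrtm4 at 3.69, Slitrk4 at 2.97 and Lrrtm1 at 1.48 came next, with every neighbouring pair overlapping. Slitrk6 was the last at 0.578, overlapping Lrrtm1. With coding length in place of exon length, Lrrtm2 was the first and Slitrk3 the second.

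**Figure D3:**
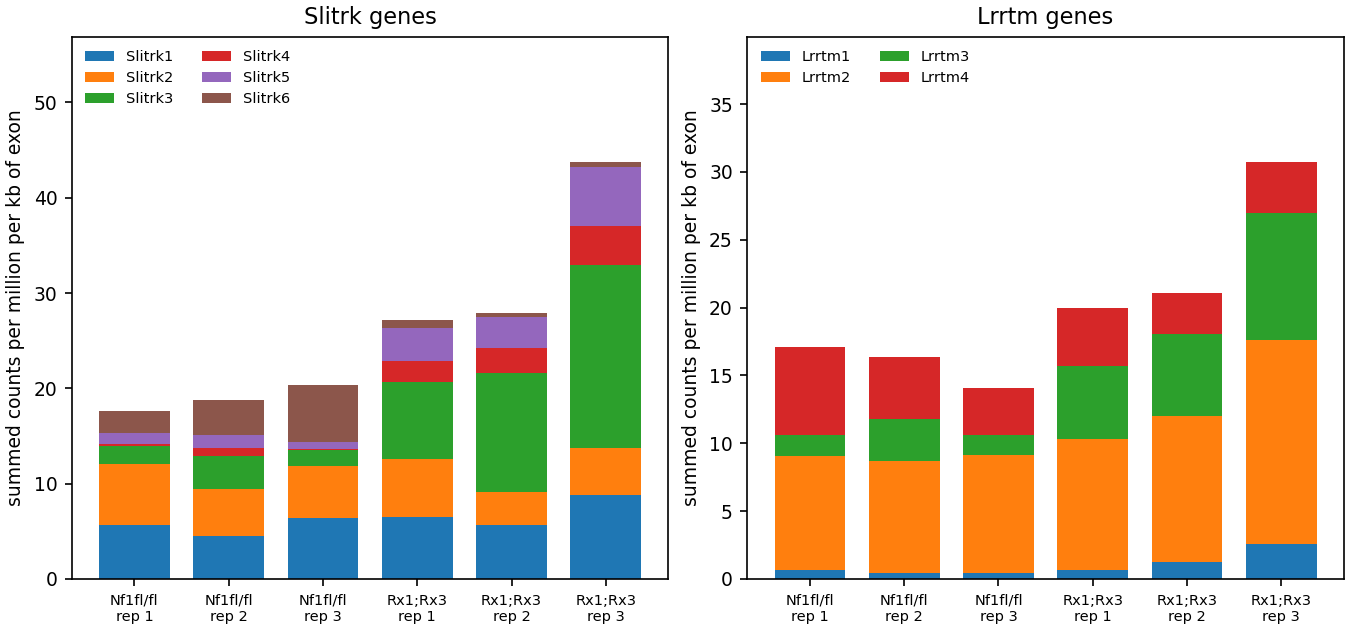
CPM per kb of merged exon, stacked by gene for the Slitrk family (left) and the Lrrtm family (right) in each library. Slitrk3 makes up 39.5% of the Slitrk sum in the labelled double knockout and 12.6% in Nf1fl/fl;DhhCre, and the Slitrk6 segment is 1.88% and 20.7%.

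The make-up of the families by gene differed between genotypes. The Slitrk genes together were at 17.6, 18.8 and 20.4 CPM per kb in Nf1fl/fl;DhhCre and at 27.1, 27.9 and 43.8 in the labelled double knockout. The share of Slitrk3 in that sum was 12.6% ± 5.16 (SD, n = 3) against 39.5% ± 8.22, and that of Slitrk6 20.7% ± 8.16 against 1.88% ± 0.87. Slitrk1 and Slitrk2 together with Slitrk6 held most of the sum in the former genotype, at 29.2%, 29.7% and 20.7%. Slitrk1 and Slitrk2 held 21.4% and 15.4% in the latter.

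The Lrrtm genes together were at 17.1, 16.4 and 14.05 CPM per kb against 20.0, 21.1 and 30.7. Lrrtm2 was the largest part of the sum in every library, at 53.9% ± 7.20 and 49.4% ± 1.26. Lrrtm3 was at 12.8% ± 5.08 against 28.7% ± 1.72, and Lrrtm4 at 30.1% ± 6.96 against 16.02% ± 4.80.

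Neuron markers moved with the genotype in the same libraries. Of 24 pan-neuronal and sensory neuron markers, 22 rose in the labelled double knockout, the median log2 fold change was 2.39, and their summed level was 1483 to 3110 CPM against 7289 to 16337, with no marker at 0 in any library. All 24 were higher in each fit that left out a library, while 1 of them passed without replicate 1 of Nf1fl/fl;DhhCre and 10 without replicate 3 of it, and 18 and 20 passed without replicates 2 and 3 of the labelled double knockout. In whole tissue, fewer cells of a type and less RNA per cell cannot be told apart. The part of these markers in the differences of the Slitrk and Lrrtm genes was not tested, and the values of the genes relative to them are given as a description.

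The mean log2 CPM of the markers was 4.401, 5.65 and 4.19 in Nf1fl/fl;DhhCre and 6.46, 6.995 and 7.59 in the labelled double knockout, a difference of 2.27. Slitrk3 relative to this mean differed by 0.20 between genotypes on the log2 scale, Slitrk5 by -0.25 and Lrrtm3 by -0.46, and their libraries overlapped. These small values moved with the libraries used, from 0.053 to 0.29 for Slitrk3 and from -0.47 to -0.019 for Slitrk5 when 1 was left out, lowest in size without replicate 2 and replicate 1 of Nf1fl/fl;DhhCre respectively. Slitrk4 was 0.96 higher relative to the markers, without overlap. Lrrtm1 differed by -0.97, with overlap.

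The other 5 genes were lower relative to the markers with no overlap between genotypes. The marker mean itself differed by 2.27 with no overlap, so a gene of equal CPM in both genotypes is lower on this scale. The share of all genes without overlap on this scale was not computed. Nothing is read from the lack of overlap, here or for Slitrk4. Lrrtm2 differed by -1.81, Slitrk1 by -1.94, Slitrk2 by -2.51, Lrrtm4 by -2.62 and Slitrk6 by -4.98. Leaving out each library in turn changed the direction of none of the 10 relative differences.

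**Figure D4:**
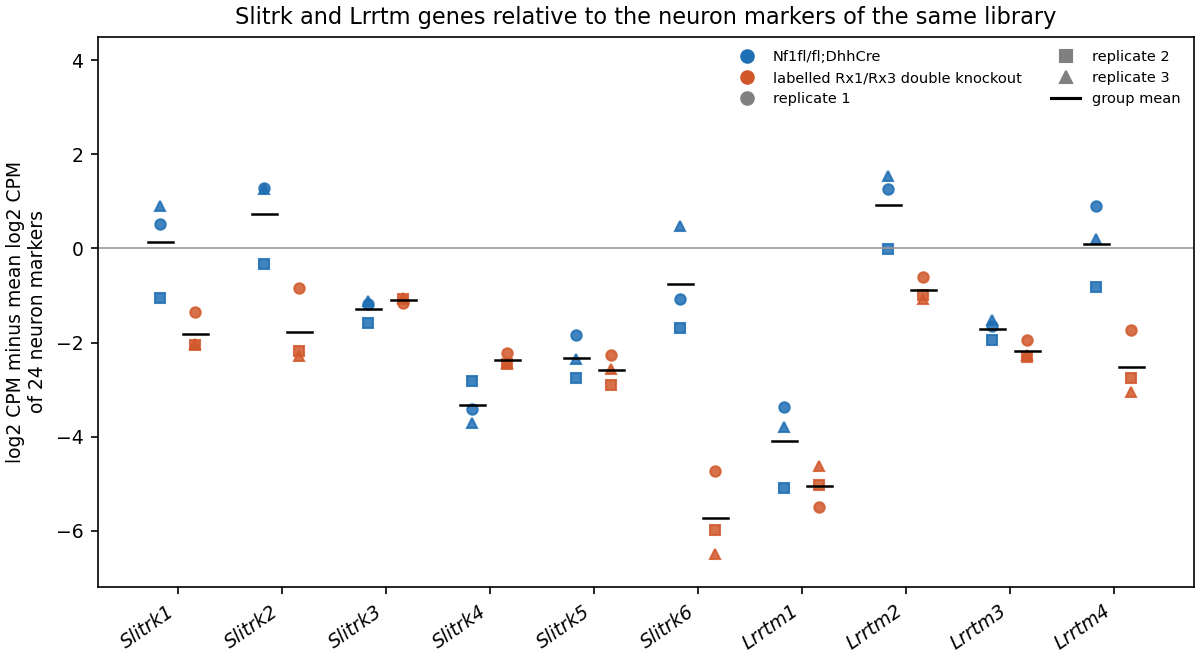
Log2 CPM of each gene minus the mean log2 CPM of 24 neuron markers in the same library, with symbols as in the plot of levels and bars for group means. Slitrk3, Slitrk5 and Lrrtm3 overlap between genotypes, Slitrk4 is 0.96 higher and Slitrk6 4.98 lower in the labelled double knockout.

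Within a genotype, the libraries could also be put in order. By the neuron markers the order from low to high was replicates 3, 1 and 2 in Nf1fl/fl;DhhCre and 1, 2 and 3 in the labelled double knockout. Slitrk3, Slitrk4 and Lrrtm3 followed both orders, which 6.22% of all genes tested did, and Slitrk5 followed the former. Lrrtm1 and Lrrtm2 followed the latter. Slitrk1, Slitrk2, Slitrk6 and Lrrtm4 followed neither, and Slitrk1 and Slitrk2 were lowest in replicate 2 of each genotype. With 3 libraries a genotype these orders are a description.

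Other cell type markers differed as well. Of 8 macrophage markers 6 fell, with a median log2 fold change of -2.10 and summed levels of 915 to 1898 CPM against 150 to 366, and 3 of 4 fibroblast markers fell. Of 7 myelinating Schwann cell markers 5 rose, while 2 of 7 general Schwann cell markers rose, with a median of -0.05. Without replicate 1 of Nf1fl/fl;DhhCre 1 macrophage, 1 fibroblast, 3 myelinating and 1 general Schwann cell markers passed, and without replicate 2 of the labelled double knockout 3 macrophage markers did. A general Schwann cell marker was also lost without replicate 3 of Nf1fl/fl;DhhCre and without replicate 2 or 3 of the labelled double knockout. Of 4 satellite glia markers 1 rose and 1 fell, neither of them past without replicate 1 of Nf1fl/fl;DhhCre, and 0 of 4 endothelial and 0 of 7 skeletal muscle markers passed, by limma-voom, edgeR and DESeq2 alike, with 1 and 0 at an unadjusted p below 0.05. Without replicate 3 of the labelled double knockout 1 endothelial marker passed. The part of these cells in the differences, Slitrk6 included, was not tested. Skeletal muscle markers stood out in replicate 2 of each genotype, with sums of 1928 and 10921 CPM against 5.39 to 65.8 in the other libraries. The oligodendrocyte lineage markers Mog, Mobp, Opalin, Olig1 and Olig2 were each at 0 in at least 1 library, and the 7 central glia markers summed to 8.15 to 22.5 CPM against 21.6 to 57.2.

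Genes with the nearest pattern over the 6 libraries were found by the distance between centred log2 CPM profiles. The search covered the 10222 tested genes whose average log2 CPM was 3 or more, without the gene itself. For Lrrtm2 the nearest were Myo5a (distance 0.108), Zdhhc21 and Atp6ap2, and for Slitrk1 they were Abhd12 (0.112), Man1b1 and Ptpre. For Slitrk3 they were Cend1 (0.169), BC048546 and Sv2b, a synaptic vesicle protein. Chosen after their values were seen, the neighbours of Slitrk4 were Myt1, Gm765 and the sensory neuron sodium channel gene Scn11a, the nearest to Slitrk2 were Col5a3 and Fign, and those of Slitrk6 were Trim30a, Clec9a and Mndal at larger distances (0.607 to 0.696).

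Outside both families, 79 genes were listed by their known role at the synapse or their kinship to Slitrk proteins, and 77 of them could be tested. Of these 24 rose and 3 fell in the labelled double knockout, 35.1% in all against 13.4% of all genes, and 50 did not pass, with a median log2 fold change of 0.61. The neuron markers above rose in the same libraries, and their part in this was not tested. Without replicate 1 of Nf1fl/fl;DhhCre 2 of them passed, 2.56% of those tested beside 2.26% of all genes, and without replicate 3 of it 6 did, 7.59% beside 6.47%. Without replicate 2 of the labelled double knockout 14 passed (17.7% beside 6.36%), and without replicate 3 of it 18 did (23.1% beside 9.98%). The share of these genes past both thresholds was thus near that of all genes without either of the former libraries. Of the genes named below as having risen or fallen, Gria1 was the one that passed without replicate 1 of Nf1fl/fl;DhhCre, and Gria1, Clstn3 and Lrfn5 were those that passed without replicate 3 of it.

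Among the 7 presynaptic partners, 3 rose and 1 fell. Nrxn2, a neurexin and so a partner of Lrrtm proteins, rose by 1.74 on the log2 scale (SE 0.44, adjusted p = 0.0341), and Ptprd, the phosphatase that binds Slitrk3, by 1.43 (SE 0.27, adjusted p = 0.0171). The glypican gene Gpc4 fell by 1.10 on the log2 scale (SE 0.23, adjusted p = 0.0208). Gpc4 did not pass without replicate 2 or 3 of the labelled double knockout or with sample quality weights (-0.92), and Nrxn2 did not without replicate 2. The phosphatase genes Ptprf and Ptprs had log2 fold changes of 0.88 (adjusted p = 0.0236, under 2-fold) and 0.04 (adjusted p = 0.885).

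Of 34 other synaptic organisers tested, 7 rose and 1 fell. Clstn3, a calsyntenin, had the largest rise, 3.66 on the log2 scale (SE 0.54, adjusted p = 0.0106), followed by Lrfn5 at 3.20 (SE 0.55, adjusted p = 0.0136) and the cerebellin gene Cbln2 at 2.57 (SE 0.65, adjusted p = 0.0346). Il1rap, an interleukin 1 receptor accessory protein that also acts at synapses, fell by 1.204 on the log2 scale (SE 0.26, adjusted p = 0.0227). Without replicate 2 or 3 of the labelled double knockout neither Cbln2 nor Il1rap passed, and Cbln2 did not with the edgeR quasi-likelihood test or with sex as a covariate. The log2 fold change of Cbln2 was 1.98 without replicate 1 and 3.47 without replicate 2 of Nf1fl/fl;DhhCre. The neuroligin genes Nlgn1, Nlgn2 and Nlgn3, which bind the same neurexins as Lrrtm proteins, did not pass, with log2 fold changes of 1.42, -0.19 and 0.08.

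Of 16 glutamate receptor and scaffold genes tested, 4 rose and 1 fell, with AMPA receptor subunits in each direction. Gria4 rose by 1.84 (SE 0.38, adjusted p = 0.0208) and Gria2 by 1.73 (SE 0.50, adjusted p = 0.0498) on the log2 scale, as did the scaffold gene Dlg2 by 1.69 (SE 0.33, adjusted p = 0.0182). Gria1 was at 36.9, 32.2 and 28.5 CPM against 6.38, 5.02 and 9.64 and fell by 2.22 on the log2 scale (SE 0.27, adjusted p = 0.00805). Gria3 was at 386, 288 and 329 CPM against 225, 157 and 198, a log2 difference of -0.79 (SE 0.17, adjusted p = 0.0236), under 2-fold. Gria1 passed in all 6 fits that left out a library, while Gria2 passed in 2 of the 6 and not with DESeq2 size factors or with every gene kept that had a count.

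Of 14 other neuronal leucine-rich repeat membrane proteins, 8 rose. On the log2 scale Lingo2 rose by 2.91 (SE 0.63, adjusted p = 0.0226), Lrrn1 by 2.21 (SE 0.43, adjusted p = 0.0174) and Elfn1 by 2.08 (SE 0.56, adjusted p = 0.0404). Lingo2 and Elfn1 did not pass without replicate 2 of the labelled double knockout. Among 6 genes of Slit ligands, Trk receptors and the Trk ligand Bdnf, Slit1 rose by 2.33 (SE 0.46, adjusted p = 0.0188) on the log2 scale. Ntrk2 had a log2 fold change of -0.38 (adjusted p = 0.187).

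**Figure D5:**
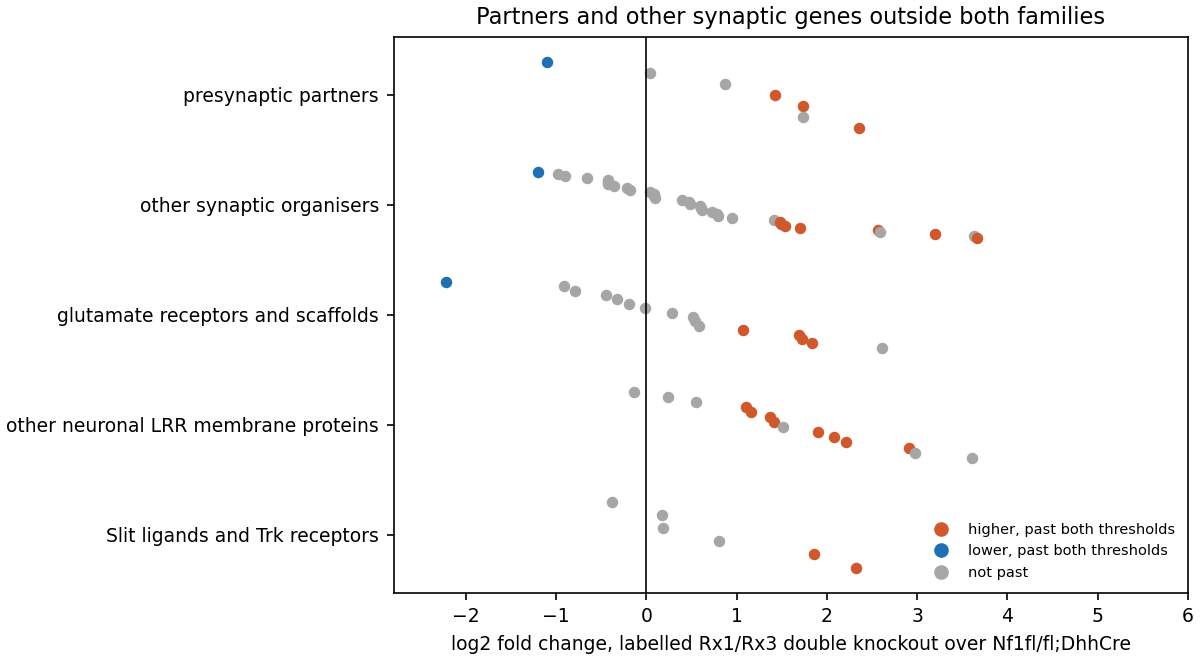
Log2 fold change between genotypes of the 77 tested genes outside both families, 1 point a gene, by role. Orange points rose and blue points fell past both thresholds, 24 and 3 genes, and grey points did not pass.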

How the data were processed

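RNA from DRG and neurofibroma tissue was amplified (Ovation RNA-Seq System v2) and made into Nextera XT libraries. The authors aligned reads to mm10 with TopHat and deposited raw counts per gene symbol from featureCounts, 1 table a library. The annotation, the strand setting and the treatment of multiply mapped reads are not given in the sources used here. From the deposited counts, genes were filtered with filterByExpr (minimum count 10, total 15), scaled by TMM (edgeR 4.0.16) and fitted by limma-voom (limma 3.58.1, R 4.3.3) on genotype alone. The study states TMM scaling and limma/voom, and its paper gives no model formula. A call needed an adjusted p below 0.05 and a change above 2-fold. The fit was tested on simulated data. CPM was divided by merged exon length from GENCODE M21. Counting error sets the precision at low counts. Titles give separate mouse numbers, taken here as separate mice. The Slitrk and Lrrtm genes and all lists were chosen with earlier results of these data known. Outside the families, the 3 genes that rose most and the 3 that fell most among those past both thresholds were named in each role group, with the alpha catenin genes, Runx1, Runx3 and Nf1, and the nearest 3 genes, of average log2 CPM of at least 3, for the 3 members highest per kb. Ptprf, Ptprs, Gria3, Nlgn1 to Nlgn3 and Ntrk2 were named outside that rule, after their values were seen. Some genes that the rule names are not reported here. Counts of calls were recomputed with DESeq2 1.42.0, with the quasi-likelihood test of edgeR, other scalings, filters and weights, sex as a covariate, and unadjusted p-values. The log2 fold changes of the members and of the genes named by the rule were recomputed in the same ways. Those of the nearest genes and of the genes named outside the rule were not. The order of levels was recomputed with coding length, the levels relative to neuron markers with pan-neuronal markers alone and a prior count of 2 in place of 0.5, and all of these without each library in turn. Counts of marker calls were recomputed in the same ways, a choice made after seeing the data. Family shares, marker sums, orders within a genotype and nearest genes were not recomputed.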

Additional observations from a re-analysis of the deposited data

How the results depend on the processing

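No paired analysis was possible because the libraries carry mouse numbers that the genotypes do not share, and the replicate numbers only name them. No gene of the 2 families changed direction in any alternative. Across the other tests, scalings, filters, weights and the sex covariate 5 of the 10 were past both thresholds, and DESeq2 gave 6 by adding Lrrtm1. Leaving out each library in turn gave 1 to 5 of the 10 and 2 to 32 of the other synaptic genes past both thresholds, and 362 to 2285 of all genes, with the lowest values without replicate 1 of Nf1fl/fl;DhhCre. The cause was not tested. The log2 fold change of Nf1, which carries the floxed allele in all mice, was -0.06 with all libraries and ran from -0.18 (without replicate 3 of the labelled double knockout) to 0.043 (without replicate 1 of Nf1fl/fl;DhhCre). The log2 fold change of Slitrk4 ran from 2.76 to 3.997 and that of Slitrk6 from -3.01 to -2.34 when a library was left out. The precision of low libraries is limited by 24 to 41 reads of Slitrk6 in the labelled double knockout, 21 to 118 of Slitrk4 in Nf1fl/fl;DhhCre and 20 to 117 of Lrrtm1 over all libraries.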
